A study of Homo sapiens with 9 samples.

Results

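Caki-1 is an established human line from a clear cell renal cell carcinoma. Its RNA was sequenced in 3 control libraries, with the genotype WT in the labels, and in 6 libraries in which TAF1D was knocked down, 3 titled SH1 and 3 titled SH3. What these titles stand for is not given in the labels. Nothing in them gives separate cultures, so the p-values measure the spread between these libraries alone, which may be technical. TAF1D is part of SL1, a complex needed to start transcription of ribosomal RNA genes by RNA polymerase I. Its own transcript was not analysed here, so its level gives no check of the labels.

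The genes described are those that the deposited annotation places in the KEGG pathway of protein processing in the endoplasmic reticulum (ER). Of the 78 genes with that term, 4 that also belong to the spliceosome, the cell cycle or PI3K-Akt signalling (CUL1, HSP90AA1, HSP90AB1 and HSPA1A) and DDIT3 were left out. This leaves 73 of the 6819 genes in the table. The rule used no measured value.

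Proteins bound for the cell surface, for secretion or for the membranes of the cell enter the ER as they are made. There they receive N-linked glycans, fold with the help of chaperones and lectins, and form disulfide bonds. Proteins that fold are packed into COPII vesicles for the Golgi, and proteins that fail to fold are pulled back to the cytosol, marked with ubiquitin and destroyed. Sensors in the ER membrane report a load of unfolded protein and adjust translation and transcription, a response known as the unfolded protein response.

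A level below is the FPKM (fragments scaled by transcript length and library size) summed over the transcripts of a gene that the table lists. The 73 genes have 156 listed transcripts in 157 rows. Of their 600 RefSeq transcripts, 134 are listed, or 22.33%, and for 56 of the 73 genes under 50% are. Only ERO1B has every RefSeq transcript in the table. A sum is thus the level of the listed transcripts and not of the whole gene. The best-known members of the pathway (HSPA5, HSP90B1, CALR, P4HB, PDIA3, XBP1, ATF4, ATF6, ERN1, SEL1L, SYVN1 and VCP) were not analysed here. All 157 rows of these genes have estimated counts at least 2-fold apart in control 1 and SH1 1, with SH1 1 the higher in 80 rows and the lower in 77. In the other 35 pairs of libraries 45.22% to 70.7% of the rows are that far apart. The values of these 2 libraries are more extreme by that selection, and results are also given for the other 7 libraries for some genes and counts.

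Each library has 1358215 to 1596467 estimated counts over all listed transcripts, 4.202% to 5.176% of the TPM of the library. The 73 genes hold 14312 to 18317 of these counts. In each library 28 to 34 of them had 100 counts or more, and 9 to 14 were at 0. Few of the marker genes searched for were in the table. These were 2 of 11 for renal epithelium (PAX8 and KRT19), 2 of 7 for clear cell carcinoma (VEGFA and CD70) and 1 of 6 for fibroblasts (PDGFRB). Of the endothelial and blood markers 0 of 6 and 0 of 6 were listed. A marker missing from the table may still be expressed. PAX8 had a mean of 2.26 to 5.42 FPKM per group. PDGFRB had 0.26 to 0.297 FPKM. KRT19 fell in SH1 from 80.7 ± 9.81 to 18.2 ± 3.15 FPKM (SD, n = 3; edgeR adjusted p = 0.00135) and had 62.5 ± 3.55 FPKM in SH3, and CD70 rose in SH1 from 13.3 ± 2.65 to 46.9 ± 7.40 FPKM (adjusted p = 0.0125). The part of these differences in the results below was not tested.

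None of the 73 genes passed the threshold (adjusted p of 0.05, edgeR quasi-likelihood test, Benjamini-Hochberg over 6398 genes) in any comparison, although all 73 passed the filter on low counts. In SH1 against control 0 of 73 passed, where 2.14% of all genes tested did. In SH3 against control it was 0 against 0.406%, in the average of both knockdown groups against control 0 against 1.11%, and in SH3 against SH1 0 against 1.36%. At an unadjusted p under 0.05 there were 11, 6, 9 and 10 genes in these 4 comparisons, or 15.1%, 8.22%, 12.3% and 13.7%, against 11.5%, 8.39%, 10.2% and 10.8% of all genes tested. DESeq2 called 6, 5, 5 and 5 of the 73, or 8.22%, 6.85%, 6.85% and 6.85%, where it called 7.21%, 4.03%, 5.63% and 6.49% of all genes. Limma-trend on log2(FPKM + 1) called 3, 0, 0 and 1 of the 73, and 2.55%, 0.875%, 1.55% and 2.14% of all genes. The DESeq2 calls included DERL1, ERO1B, GANAB, PRKCSH and SAR1A in SH1, and were EIF2AK1, ERO1B, MAPK8, PLAA and UBXN1 in SH3. In the average they were EIF2AK1, ERO1B, GANAB, MAPK8 and PRKCSH, and in SH3 against SH1 EIF2AK1, GANAB, PLAA, SAR1A and SEC31A. The limma-trend calls included GANAB and SEC31A in SH1, and the call in SH3 against SH1 was SEC31A. The 2 knockdown groups share the control libraries.

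The median log2 fold change of the 73 genes was -0.11 in SH1 against control, -0.03 in SH3 against control and -0.03 in SH3 against SH1. Over all genes tested the medians were -0.03, -0.03 and 0.00. In the average of the knockdown groups the median was -0.29, with 27 of 73 values above 0 (36.99%), against -0.07 over all genes, of which 46.23% were above 0. A fitted value depends on the method where a group is at 0 counts, as in 6 of the 73 genes, and without these the median of the average was -0.22, with 27 of 67 above 0. Described below are the genes nearest to the threshold, the members of each step of the pathway, and the spread that these counts carry.

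**Figure D1:**
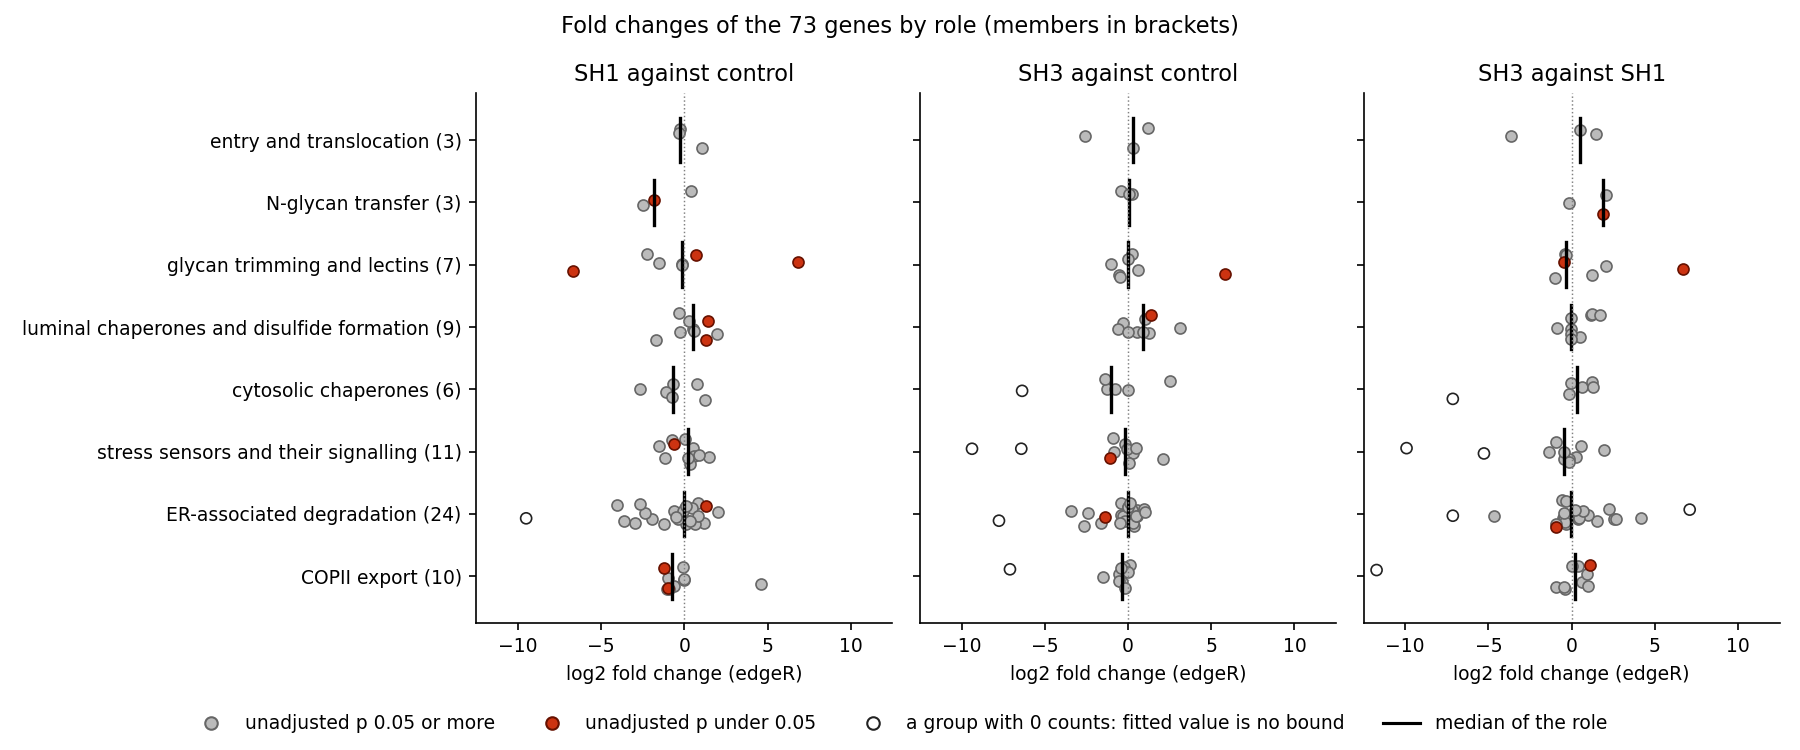
Log2 fold change from edgeR of each of the 73 genes (one point per gene, x axis) by its role in the pathway (y axis), in SH1 against control, SH3 against control and SH3 against SH1. Black bars are the medians of each role; red points have an unadjusted p under 0.05, open points have a group with 0 counts, and none of the points passed the threshold after adjustment.

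The ER oxidases ERO1A and ERO1B pass electrons from protein disulfide isomerases to oxygen, and so keep disulfide bond formation going. ERO1B was at 1.08, 0.59 and 0.64 FPKM in controls 1 to 3, at 2.44, 2.42 and 1.94 in SH1 and at 2.30, 2.28 and 1.70 in SH3. All 6 knockdown libraries lay above all 3 controls. Its log2 fold change was 1.41 ± 0.31 (SE) in SH1 (edgeR adjusted p = 0.0755), 1.38 ± 0.31 in SH3 (adjusted p = 0.178) and 1.40 ± 0.28 in their average (adjusted p = 0.0724), about 2.63-fold. SH3 and SH1 differed by -0.03 ± 0.31. In the other 7 libraries the values were 1.69 ± 0.33 in SH1 and 1.66 in SH3. DESeq2 called it in SH1 (adjusted p = 0.000156), in SH3 (0.000575) and in the average (1.59e-05).

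ERO1A, also known as a target of the hypoxia response, was at 1.56, 1.36 and 1.34 FPKM in the controls, at 6.25, 1.26 and 4.44 in SH1 and at 5.34, 2.95 and 2.43 in SH3. SH1 2 lay below the controls and the other 5 knockdown libraries above them. The log2 fold change was 1.30 ± 0.55 in SH1 (edgeR adjusted p = 0.421) and 1.25 ± 0.55 in SH3 (adjusted p = 0.601). The sum holds 7 listed transcripts. The most abundant of them, NM_001382465, was at 0 in control 1 and at 0.17 FPKM in SH1 2.

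Genes of the unfolded protein response carry short elements in their promoters that ATF6, with the CCAAT-binding factor NF-Y, and XBP1 bind. The RefSeq promoter windows, from 250 bases before to 50 after a start, were available for 63 of the 73 genes (97 windows, GRCh38.p14). The exact ER stress response element, CCAAT and CCACG with any 9 bases between them on either strand, was found in 3 of the 63 genes (4.76%, exact binomial 95% interval 0.993% to 13.3%), against 0.159% of the 5672 genes of the table with a window. By window it was in 5 of the 97 (5.15%), against 0.0769% of all 35116 windows. The 5672 genes include these 63, 9 of the 5672 have the element, and the shares were not compared by a test. The 3 occurrences among the 63 are shown, read on the strand of the element and with 5 bases either side, with CCAAT and CCACG in capitals.
ERO1B, chr1:236282183-236282201, opposite to the gene: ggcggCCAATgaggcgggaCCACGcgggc
CANX, chr5:179698778-179698796, same strand as the gene: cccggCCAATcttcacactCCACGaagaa
PDIA6, chr2:10812853-10812871, same strand as the gene: ccggaCCAATgagccgcagCCACGgcttg
The ERO1B element ends 225 bases before the start, and the PDIA6 element 68 bases before it. The CANX element lies in 3 overlapping windows of different starts.

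The 3 genes with the element did not have like values. CANX (calnexin, the membrane lectin of the ER) was at 9.52, 0.06 and 1.05 FPKM in the controls, at 6.47, 2.15 and 1.92 in SH1 and at 6.84, 0.18 and 0.33 in SH3. PDIA6, a protein disulfide isomerase, was at 0 in 6 of 9 libraries and at most 0.96 FPKM. In the 9 libraries the groups overlap for both genes, and their log2 fold changes in SH1 were -0.11 ± 1.67 for CANX and 0.26 ± 2.97 for PDIA6. Of the CANX level in control 1, 8.12 FPKM came from NM_001363996, which was at 0 in the other controls and in SH1. In the other 7 libraries SH1 lay above control for CANX, as for 24.5% of all genes tested. With 1 mismatch allowed in CCACG, HYOU1 was added (4 of 63 genes, 6.35%, against 1.76% of the genes of the table). The shorter unfolded protein response element TGACGTG, searched on both strands, was in 9 of the 63 genes (14.3%, against 3.79% of the genes of the table): HYOU1, MAPK8, SEC13, SEC23A, SEC24A, SSR3, SSR4, TXNDC5 and UBE2J1. In SH1 against control the log2 fold changes of these 9 ran from -1.68 (TXNDC5) to 1.05 (SSR4). The element of CHOP and ATF4, TGATGNAAN on either strand, was in 1 of the 63 (HSPA4L; 1.59%, against 3.39% of the genes of the table). These matches describe the letters of the windows and are no measure of binding.

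Other luminal chaperones and helpers of folding were low and uneven. HYOU1, the large ER chaperone of the HSP110 family, was at 0.64, 2.29 and 0 FPKM in the controls and at 1.28 to 1.86 in the 6 knockdown libraries, with a log2 fold change of 0.56 ± 1.33 in SH1 and 0.54 ± 1.33 in SH3. DNAJC3 (P58IPK), an ER co-chaperone, was at 0, 0.03 and 0.40 FPKM in the controls, at 0.54, 1.33 and 0 in SH1 and at 1.51, 1.37 and 1.02 in SH3. The SH3 libraries lay above the controls, and the log2 fold change of 3.11 ± 1.99 did not pass the threshold (edgeR adjusted p = 0.805). PDIA4, a further disulfide isomerase and the most abundant of the 9 genes of this step at a mean of 5.57 FPKM, ran from 0.88 to 9.27 in the controls and from 1.37 to 11.8 in SH1. BCAP31 ran from 0 to 8.46 FPKM, SIL1 from 0 to 1.19 and TXNDC5 from 0 to 1.91. Of these 9 genes 6 had a positive log2 fold change in SH1, 7 in SH3 and 6 in their average, and 0 passed the threshold. Over all genes tested 48.58%, 48.56% and 46.23% were positive. The medians of the 9 genes were 0.54, 0.89 and 0.55, each below their median SE of 1.37, 1.38 and 1.22. A library at 0 counts was found for 6 of the 9. The counts of positive values were the same with DESeq2 size factors, without TMM and with the library factors of the authors.

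After transfer of a glycan, glucosidase I (MOGS) and glucosidase II remove its glucoses. Glucosidase II is a dimer of the catalytic subunit GANAB and the subunit PRKCSH, which holds it in the ER. GANAB had the highest level of the 73 genes. It was at 20.9, 19.4 and 25.7 FPKM in the controls, at 44.0, 35.6 and 38.9 in SH1 and at 23.5, 29.7 and 28.2 in SH3. The SH1 libraries lay above all others, and SH3 overlapped the controls. The log2 fold change was 0.69 ± 0.15 in SH1 (edgeR adjusted p = 0.0663, 1.61-fold) and 0.22 ± 0.15 in SH3 (adjusted p = 0.819), and SH3 differed from SH1 by -0.46 ± 0.15 (adjusted p = 0.261). GANAB passed in SH1 with the library factors of the authors (0.78, adjusted p = 0.0480), with DESeq2 (0.71, adjusted p = 0.000264) and with limma-trend on log2(FPKM + 1) (0.82, adjusted p = 0.0251). In the other 7 libraries the value was 0.60 ± 0.18 (edgeR adjusted p = 0.301).

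Of 4 listed GANAB transcripts NM_198335 held most of the sum. By itself it was at 20.9, 19.4 and 19.8 FPKM in the controls, at 42.4, 35.6 and 38.9 in SH1 and at 23.0, 24.4 and 25.7 in SH3. Its groups are closer within themselves than the sums are, with a log2 fold change of 0.86 ± 0.15 in SH1 (edgeR adjusted p = 0.108 among single transcripts).

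PRKCSH, with 1 listed transcript, was at 0.15, 0 and 0 FPKM in the controls, at 1.26, 5.44 and 13.02 in SH1 and at 0.01, 0.49 and 8.65 in SH3. The SH1 libraries lay above the controls but were far apart among themselves, and SH3 overlapped the controls. The estimated counts were 6 in the 3 controls together, 797 in SH1 and 373 in SH3. Its fitted log2 fold change was 6.85 ± 2.33 in SH1 (edgeR adjusted p = 0.294; DESeq2 adjusted p = 0.00715) and 5.82 ± 2.24 in SH3 (edgeR adjusted p = 0.532). Both subunits of glucosidase II were thus above the controls in 3 of 3 SH1 libraries, neither past the threshold.

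The remaining genes of glycan trimming and the lectin cycle did not separate the groups in SH1 in the same way. MOGS was at 2.32, 2.56 and 9.17 FPKM in the controls and at 0, 1.15 and 2.08 in SH1, all 3 below the controls, with a log2 fold change of -2.26 ± 1.36. UGGT1, the sensor that puts a glucose back on misfolded glycoproteins, was among the steadiest genes, at 6.34 ± 0.509 FPKM in control, 6.48 ± 1.08 in SH1 and 4.87 ± 1.17 in SH3 (SD, n = 3), with log2 fold changes of -0.13 ± 0.21 and -0.46 ± 0.21 (edgeR adjusted p = 0.971 and 0.615). Its relative UGGT2 was at 0.40 ± 0.161 in SH1 and 1.62 ± 0.250 in SH3, which do not overlap, and at 0 to 1.56 in the controls. MAN1A1, a mannosidase that trims glycans further, was at 0.66, 0 and 1.69 FPKM in the controls, at 0, 0.03 and 0 in SH1 and at 1.64, 0.85 and 0 in SH3. With 2 counts in SH1 and 219 in the controls, its log2 fold change was -6.67 ± 2.76 (edgeR adjusted p = 0.412), and control 2 was as low as SH1.

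**Figure D2:**
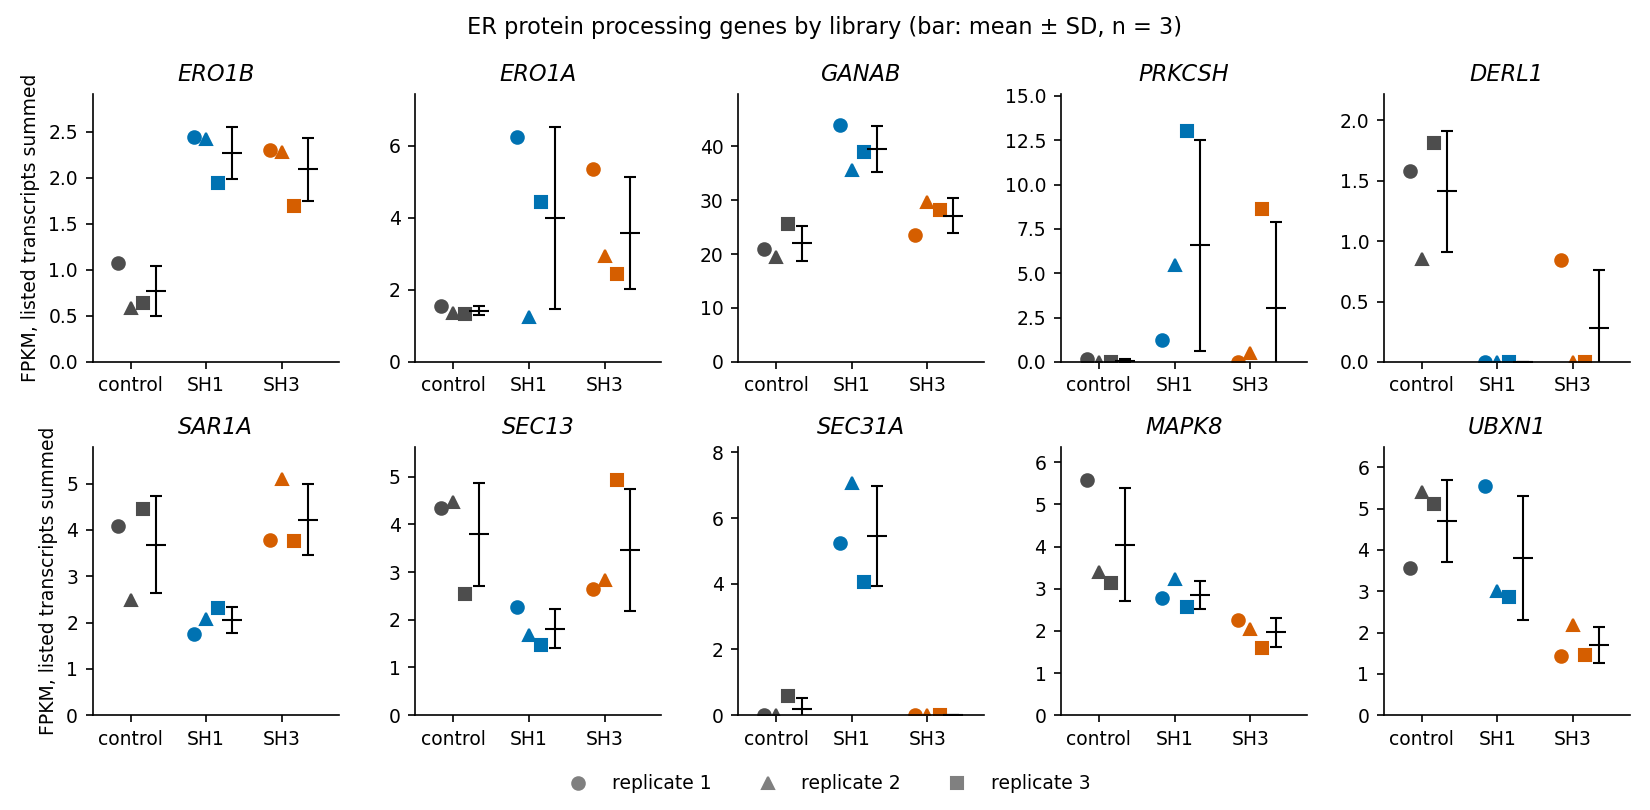
FPKM of 10 genes (y axis, each panel with its own scale from 0) in control, SH1 and SH3 libraries (x axis); symbols mark replicates 1 to 3, and the black bars are mean ± SD (n = 3), clipped at 0. ERO1B lies above the controls in all 6 knockdown libraries, GANAB in SH1, SAR1A and SEC13 lie below them in SH1, and DERL1 and SEC31A are at 0 in whole groups.

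Oligosaccharyltransferase attaches the glycan. STT3B, the catalytic subunit that acts after translation, was at 40.5, 14.6 and 15.3 FPKM in the controls, at 13.5, 2.70 and 6.82 in SH1 and at 24.8, 11.3 and 31.0 in SH3. The SH1 libraries lay below the controls. The log2 fold change was -1.81 ± 0.78 in SH1 (edgeR adjusted p = 0.429) and 0.07 ± 0.75 in SH3. The paralog STT3A, which acts during translation, had listed transcripts at 0.06 to 0.45 FPKM in all libraries, with overlapping groups. RPN2, a further subunit, was at 0 in 4 of 9 libraries and at up to 4.43 FPKM in the others.

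The listed transcripts of STT3B did not share their pattern. XM_017005859 was at 0.29, 14.6 and 15.3 FPKM in the controls, at 2.71, 2.70 and 6.82 in SH1 and at 0 in the 3 SH3 libraries, where its sister XM_017005858 was at 24.8, 11.3 and 31.0. XM_017005858 was itself at 0 in controls 2 and 3 and in SH1 2 and 3. So each library other than control 1 and SH1 1 has counts for 1 of the 2 transcripts and none for the other. For XM_017005859 the comparison of SH3 with control had an edgeR adjusted p of 0.289.

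In ER-associated degradation, 24 genes were measured. DERL1 (derlin-1), part of the channel through which misfolded proteins leave the ER, was low in the knockdown libraries. It was at 1.58, 0.85 and 1.81 FPKM in the controls, at 0 in the 3 SH1 libraries and at 0.84, 0 and 0 in SH3. Every knockdown library lay below every control, SH3 1 only just. The controls held 255 estimated counts together and SH1 none, which with 3 counts allowed in SH1 is at least 95.6-fold lower. The edgeR adjusted p was 0.311 in SH1 and that of DESeq2 was 0.0261. In the other 7 libraries the unadjusted edgeR p of DERL1 was not under 0.05 in SH1 or SH3 against control. Its listed transcripts, 2 of 4 in RefSeq, were both at 0 in SH1.

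The cytosolic side of degradation is served by VCP and its adaptors. UBXN1, an adaptor, was at 3.56, 5.41 and 5.11 FPKM in the controls, at 5.54, 3.01 and 2.86 in SH1 and at 1.44, 2.19 and 1.46 in SH3. The SH3 libraries lay below all others, with a log2 fold change of -1.41 ± 0.48 against control (edgeR adjusted p = 0.438; DESeq2 adjusted p = 0.0330). The UBXN1 sum holds 2 listed transcripts. Over 22 settings of the processing its log2 fold change in SH3 against control ran from -2.48 to 1.19, so its sign depends on the setting. PLAA, a VCP cofactor that binds ubiquitin, was at 0.34, 0.44 and 0.45 FPKM in the controls, at 0, 0.50 and 0.38 in SH1 and at 0 in SH3. Its counts were 75, 55 and 0 over the 3 groups, so that SH3 was at least 26.8-fold below control (edgeR adjusted p = 0.422; DESeq2 adjusted p = 0.0342). UFD1, which works with VCP in the same step, was at 0.37, 9.96 and 3.69 FPKM in the controls and at 0 to 1.38 in the knockdown libraries, with control 1 inside that range.

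Of the other degradation genes, the mannosidase-like EDEM1 ran from 0 to 2.38 FPKM, EDEM2 from 0 to 4.29 and EDEM3 from 0 to 0.80. The lectin OS9 ran from 0.12 to 2.6, and ERLEC1 from 0.12 to 6.26. NGLY1, the enzyme that removes glycans from proteins in the cytosol, was even, at 2.08 ± 0.737 FPKM in control, 2.48 ± 0.348 in SH1 and 1.87 ± 0.852 in SH3 (SD, n = 3; log2 fold changes of 0.12 ± 0.47 and -0.20 ± 0.47). The ubiquitin-conjugating enzyme UBE2J2 ran from 0.82 FPKM in control 1 to 7.56 in SH1 1. UBE2D4 was at 1.27 ± 0.326 in control, 1.51 ± 0.124 in SH1 and 1.83 ± 0.217 in SH3. The others (ATXN3, NSFL1C, RAD23B, RNF185, SVIP, UBE2G2, UBE2J1, UBE4B, UBXN2A, UBXN6 and UBXN8) had unadjusted p values above 0.05 in all 4 comparisons. Over the 24 genes, 12 log2 fold changes were above 0 in SH1 and 12 in SH3, with medians of 0.01 and 0.00. In the other 7 libraries 14 of 23 were above 0 in both, with medians of 0.34 and 0.06, against 0.01 and 0.02 over all genes there. Among the genes above 0, UBE2J1 and UBXN8 had both remaining controls at 0 counts.

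COPII vesicles form when SAR1 binds GTP, recruits SEC23 with SEC24, which picks the cargo, and then the outer coat of SEC13 with SEC31. SAR1A was at 4.08, 2.49 and 4.46 FPKM in the controls, at 1.76, 2.08 and 2.31 in SH1 and at 3.79, 5.10 and 3.76 in SH3. The SH1 libraries lay below all others. The log2 fold change was -0.99 ± 0.26 in SH1 (edgeR adjusted p = 0.133; DESeq2 adjusted p = 0.0149) and 0.13 ± 0.26 in SH3, and SH3 differed from SH1 by 1.12 ± 0.26 (edgeR adjusted p = 0.115; DESeq2 adjusted p = 0.00398). In the other 7 libraries these were -0.78 in SH1 and 0.96 in SH3 against SH1. There the unadjusted edgeR p was under 0.05 in SH3 against SH1 but not in SH1 against control.

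SEC13 was also lowest in SH1. It was at 4.34, 4.48 and 2.55 FPKM in the controls, at 2.27, 1.69 and 1.48 in SH1 and at 2.64, 2.83 and 4.94 in SH3. The SH1 libraries lay below all others, with a log2 fold change of -1.22 ± 0.46 (edgeR adjusted p = 0.364). In the other 7 libraries SH1 still lay below the controls for SEC13, but its unadjusted edgeR p was not under 0.05. SEC24A was at 6.01, 4.56 and 4.96 FPKM in the controls and at 2.42, 4.04 and 2.85 in SH1, again without overlap, while SH3 ran from 1.57 to 5.71 (log2 fold change -0.89 ± 0.44 in SH1, adjusted p = 0.517).

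SEC31A, by contrast, was highest in SH1, by 1 listed transcript of the 57 in RefSeq. It was at 0, 0 and 0.59 FPKM in the controls, at 5.25, 7.07 and 4.06 in SH1 and at 0 in the 3 SH3 libraries. The SH1 libraries stood alone, with 1330 estimated counts against 47 in the controls and 0 in SH3. SH3 was thus at least 423-fold below SH1 (edgeR adjusted p = 0.199). This difference passed with DESeq2 (adjusted p = 0.000284), with limma-trend on log2(FPKM + 1) (adjusted p = 0.00130), in a fit of SH1 and SH3 alone (edgeR adjusted p = 0.0173) and without control 3 (0.0196). The other transcripts of SEC31A were not analysed here.

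The remaining coat genes varied within groups. SEC23A, the most abundant of the step, was at 2.73, 30.5 and 35.5 FPKM in the controls, at 7.17, 14.2 and 28.2 in SH1 and at 4.87, 2.46 and 14.4 in SH3 (log2 fold change -1.51 ± 0.92 in SH3, edgeR adjusted p = 0.766). In the other 7 libraries SH3 lay below the controls for SEC23A, as for 13.6% of all genes tested. There its unadjusted edgeR p in SH3 was under 0.05, and it did not pass the threshold. SEC23B ran from 0.25 to 1.42, SEC24D from 0.53 to 7.75, SEC24C from 0 to 8.44, and PREB, the exchange factor for SAR1, from 0.71 to 6.16. SEC24B was the evenest, at 7.55 ± 1.27 FPKM in control, 8.16 ± 0.199 in SH1 and 8.31 ± 0.901 in SH3 (SD, n = 3), and its log2 fold changes were -0.01 ± 0.15 and 0.01 ± 0.15. SEC31A has no direction in the average of the knockdown groups, where its fitted value is the mean of 4.63 in SH1 and of -7.09 in SH3, a group at 0. Of the other 9 COPII genes, 9 had a fitted log2 fold change below 0 in the average (median -0.61, against -0.07 over all genes, of which 46.23% were above 0), with SEC24B at 0.00 to 2 decimals and 0 past the threshold. With the other scalings (DESeq2 size factors, no TMM, the factors of the authors) 8 of these 9 were below 0, with medians of -0.54 to -0.61, and in the other 7 libraries 7 of 9 were, with a median of -0.48. In SH1 separately 8 of the 9 were below 0, and in SH3 7 of the 9.

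Among the stress sensors and the kinases they signal through, MAPK8 (JNK1), which the IRE1 branch activates, came nearest to the threshold. It was at 5.59, 3.40 and 3.14 FPKM in the controls, at 2.78, 3.22 and 2.57 in SH1 and at 2.26, 2.05 and 1.59 in SH3. The SH3 libraries lay below all others, and SH1 overlapped the controls. The log2 fold change was -1.11 ± 0.26 in SH3 (edgeR adjusted p = 0.195; DESeq2 adjusted p = 0.00566) and -0.64 ± 0.26 in SH1 (edgeR adjusted p = 0.399). SH3 differed from SH1 by -0.47 ± 0.26 (adjusted p = 0.618). In the other 7 libraries the SH3 value was -0.86 (unadjusted p = 0.0122). MAPK8 is summed over 9 listed transcripts, and 0 of the 9 were above 0 in all libraries.

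EIF2AK3 (PERK), the sensor that slows translation, was low, at 0, 1.05 and 0 FPKM in the controls and at 0 to 0.47 in the knockdown libraries. The heme-regulated kinase EIF2AK1 (HRI), chosen here after its values were seen, was at 0, 2.57 and 0 FPKM in the controls, at 0.36, 3.87 and 0.16 in SH1 and at 0 in SH3. DESeq2 called it in SH3 against SH1 (adjusted p = 1.69e-11), where edgeR gave an adjusted p of 0.456, and 1 library in each of control and SH1 held most of its counts. CAPN1, a calpain linked to ER stress and cell death, was at 0, 0.46 and 0.52 FPKM in the controls, at 1.34, 1.25 and 0.61 in SH1 and at 2.13, 1.52 and 0.82 in SH3. All 6 knockdown libraries lay above the controls, with a log2 fold change of 1.79 ± 1.19 in the average (edgeR adjusted p = 0.743). NFE2L2 (NRF2), the oxidative stress factor that PERK can phosphorylate, was at 1.91 ± 0.678, 2.52 ± 0.873 and 2.17 ± 0.431 FPKM in control, SH1 and SH3, with log2 fold changes of 0.23 ± 0.45 and 0.04 ± 0.45. MBTPS1, the site-1 protease that cuts ATF6, ran from 0 to 7.46 FPKM in the controls, from 0.06 to 3.56 in SH1 and from 1.26 to 10.2 in SH3. BAK1, MAP2K7, MAP3K5, MAPK9 and TRAF2 had unadjusted p values above 0.05 in all 4 comparisons.

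The cytosolic chaperones of the pathway were HSPH1, HSPA4L, DNAJA1, DNAJB1, DNAJB12 and BAG1. HSPA4L was at 0.77, 1.56 and 0.71 FPKM in the controls, at 0, 0 and 0.53 in SH1 and at 0.51, 0.17 and 0.58 in SH3. All 6 knockdown libraries lay below the controls, with a log2 fold change of -2.02 ± 1.44 in the average (edgeR adjusted p = 0.788). HSPH1, a nucleotide exchange factor for HSP70, was at 3.68 ± 1.46 FPKM in control, 2.52 ± 1.07 in SH1 and 2.24 ± 0.707 in SH3 (SD, n = 3), and its log2 fold change was -0.75 ± 0.39 in the average (adjusted p = 0.583). BAG1, which binds HSP70, was at 7.89 to 11.9 FPKM in 8 libraries and at 0.10 in SH1 3. DNAJA1 was at 0 in 5 of 9 libraries and DNAJB1 in 5 of 9. DNAJA1 was at 0 counts in SH3, so its fitted value in the average depends on how that group is fitted. Of the other 5 genes, 4 were below 0 in the average, with a median of -0.75, where 46.23% of all genes were above 0, and 0 passed the threshold. All 5 were below 0 in the other 7 libraries, with a median of -1.28, DNAJB1 among them with SH1 at 0 counts there.

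Entry into the ER was represented by SEC61A2, a paralog of the channel subunit SEC61A1, and by SSR3 and SSR4 of the translocon-associated complex. SEC61A2 was at 1.69, 1.5 and 1.49 FPKM in the controls, at 1.55, 1.67 and 1.23 in SH1 and at 2.04, 1.82 and 2.11 in SH3. The SH3 libraries lay above all others by a small step, with a log2 fold change of 0.28 ± 0.37 against control. SSR3 ran from 0.13 to 2.09 and SSR4 from 0 to 2.22.

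Counted over the 73 genes, SH1 lay wholly above control in FPKM for 6 (12.9% of all genes tested) and wholly below for 8 (7.33% of all). SH3 lay above control for 6 (10.2% of all genes tested) and below for 5 (7.13% of all). All 6 knockdown libraries lay above all controls for ERO1B and CAPN1 (4.08% of all genes tested) and below them for DERL1 and HSPA4L (2.25% of all). SH3 lay above SH1 for 8 (9.75% of all) and below for 8 (12.6% of all). In the other 7 libraries, a count added after the data were seen, SH1 lay above control for 14 (24.5% of all) and below for 16 (15.5%), and SH3 above for 12 (18.5%) and below for 9 (13.6%). All knockdown libraries lay above control for 6 (8.77%) and below for 6 (5.81%), and SH3 lay above SH1 for 11 (14.8%) and below for 10 (18%). The shares of the 73 genes above control were below those of all genes in each of these counts. The share below control in SH1 was above that of all genes, 11% against 7.33% in the 9 libraries and 21.9% against 15.5% in the other 7. The share below control in both knockdown groups was 2.74% (2 of 73 genes), near the 2.25% of all genes, and 8.22% against 5.81% in the other 7. In SH3 the share below control was under that of all genes, 6.85% against 7.13% and 12.3% against 13.6%. These differences between shares were not tested.

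The spread within groups was wide. The median coefficient of variation (CV) within groups was 66.0% over the 73 genes and 50.08% over all genes tested. A library at 0 counts was found for 36 of the 73 (49.32%, against 38.82% of all), and 19 (26.03%, against 13.21% of all) had both 0 and 100 or more counts among the 3 libraries of a group. RAD23B, which carries ubiquitinated proteins to the proteasome, was at 16.5, 6.68 and 0 FPKM in the controls. UBXN6, a VCP adaptor, was at 0, 17.3 and 0. These libraries carry the same label, so a fold change of such a gene rests on 1 or 2 libraries.

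**Figure D3:**
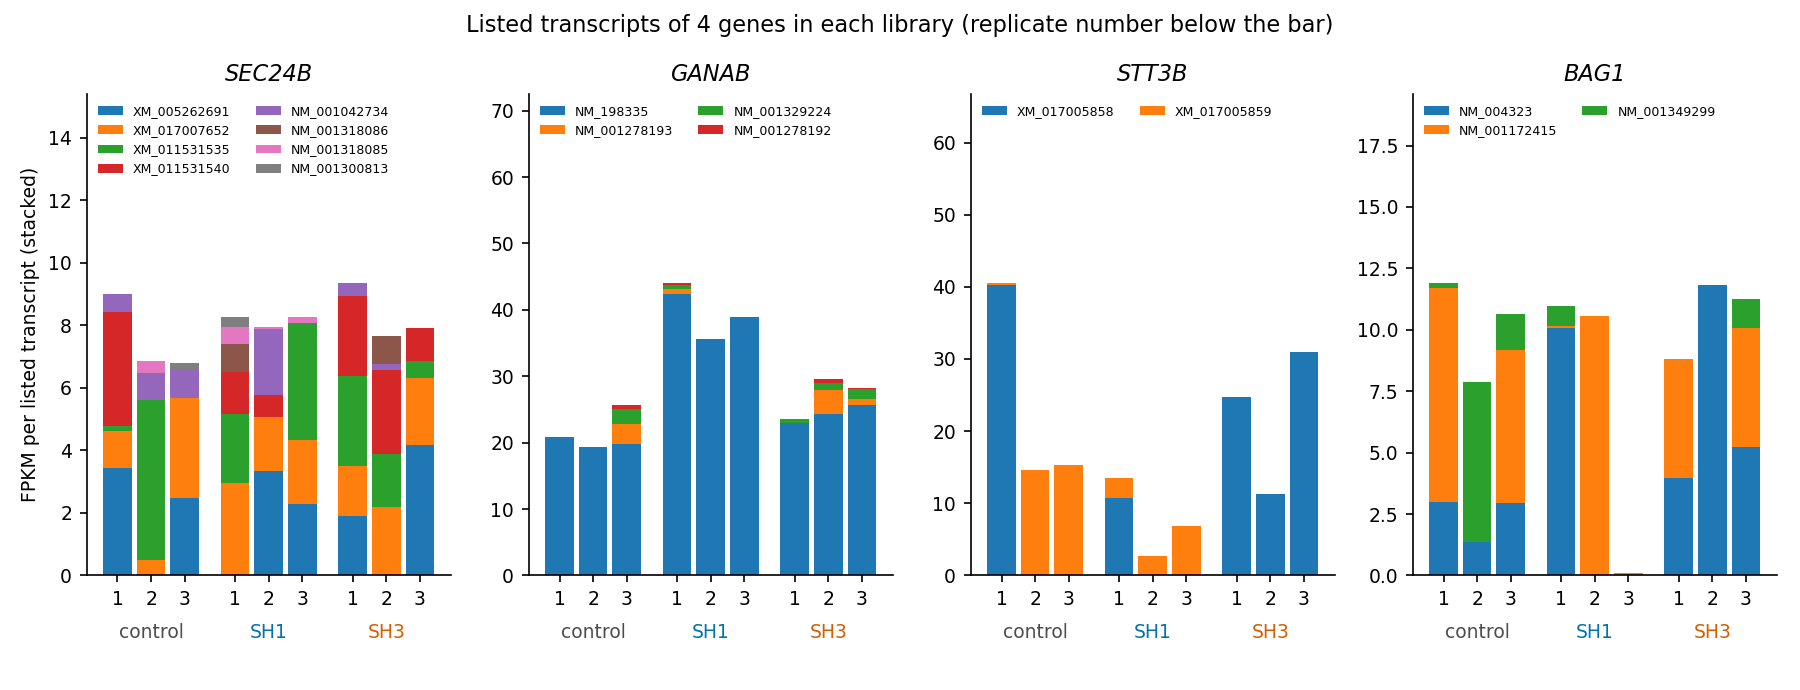
FPKM of each listed transcript (colours, stacked) of SEC24B, GANAB, STT3B and BAG1 in the 9 libraries (x axis, replicate numbers under group names; each panel has its own y axis). The sum of SEC24B stays between 6.78 and 9.34 FPKM while its transcripts come and go, and each transcript of STT3B is at 0 in several libraries.

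For 43 genes with more than 1 listed transcript the sums can be set beside their parts. Their median CV within groups was 110.3% for the transcripts and 57.25% for the sum, against 105.2% and 40.69% over all such genes. SEC24B has the most even sum of the COPII genes. Its sum over 8 transcripts lay between 6.78 and 9.34 FPKM in the 9 libraries (CV within groups 11.3%), while the median CV of its transcripts was 121.4%. XM_011531535, for example, was at 0.15, 5.11 and 0 FPKM in the controls, and XM_005262691 was at 3.43, 0 and 2.49.

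SEC61A2 (transcripts 126.2%, sum 10.2%), GANAB (140.6% and 12.2%) and UBE2D4 (110.1% and 15.4%) also had sums far more even than the median of their transcripts. The margin was wider than that of SEC24B in SEC61A2 and GANAB. In GANAB that median comes from transcripts of low level. NM_198335, which holds most of the GANAB sum, was itself closer within groups than the sum. BAG1 kept its sum at 7.89 to 11.9 FPKM in 8 libraries, although NM_001172415 was at 8.73, 0 and 6.23 in the controls and at 0.09, 10.6 and 0.10 in SH1. At the other end, the sums of EDEM3 (transcripts 264.8%, sum 163.2%) and SEC24C (165.6% and 135.4%) varied most widely, though less than their parts. The sum of DERL1 (65.1% and 71.3%) was no more even than its parts. The 30 genes with 1 listed row have no such sum, and among them ERO1B (CV within groups 17.5%) and SAR1A (23.1%) were even.

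**Figure D4:**
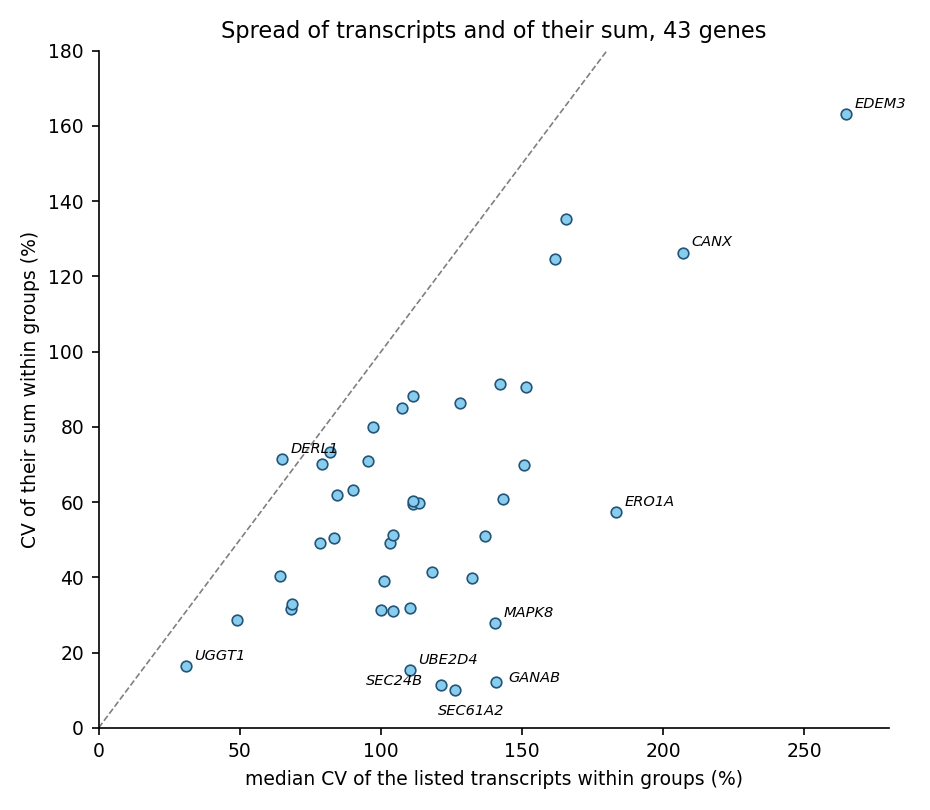
Median CV within groups of the listed transcripts (x axis, percent) against the CV of their sum (y axis, percent) for the 43 genes with more than 1 listed transcript; the dashed line marks equal values. Most genes lie below the line, with SEC61A2, SEC24B and GANAB near 10% to 12% on the y axis.

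Other ER genes outside the rule, in 5 lists of 87 genes, were in the table for 34 and tested for 32. They cover lipid-linked oligosaccharide synthesis (12 in the table), membrane protein insertion (8), ER-phagy receptors and UFMylation (6), signal recognition and signal peptidase (5) and further targets of the unfolded protein response (3). In each of the 4 comparisons 0 of the 32 passed the threshold in edgeR, against 2.14%, 0.406%, 1.11% and 1.36% of all genes tested. At an unadjusted p under 0.05 there were 2, 2, 2 and 0 of the 32, against 11.5%, 8.39%, 10.2% and 10.8% of all genes tested. Nearest was ATL3, an atlastin that shapes the ER and serves as a receptor for its turnover. It was at 24.3, 14.0 and 14.1 FPKM in the controls, at 11.5, 9.88 and 6.23 in SH1 and at 12.9, 12.4 and 12.1 in SH3, all 6 knockdown libraries below the controls (log2 fold change -1.07 ± 0.26 in SH1, edgeR adjusted p = 0.105, and -0.55 ± 0.26 in SH3, adjusted p = 0.633). ALG5, which makes the glucose donor for the glycan precursor, was at 14.4, 8.64 and 11.5 FPKM in the controls, at 23.6, 17.8 and 16.9 in SH1 and at 21.2, 22.3 and 19.4 in SH3. All 6 knockdown libraries lay above the controls (0.60 ± 0.22 in SH1, adjusted p = 0.337, and 0.79 ± 0.22 in SH3, adjusted p = 0.286). Among all genes tested, the 6 knockdown libraries lay below the controls for 2.25% and above them for 4.08%.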

How the data were processed

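Total RNA was sequenced in 9 Caki-1 libraries, 3 each of control, SH1 and SH3, grouped by their labels. The authors deposited 1 table of 20909 transcripts with 4 values per library per the file headers: FPKM, TPM, an estimated count (an expected count, 65.11% of values not whole) and a normalized read count, a signal equal to the estimated count over 1 factor per library. The labels name the build mm10 and no aligner or counter; 6813 of 6819 gene numbers, and all 73 used here, are in the human RefSeq table (GRCh38.p14), so the only positions given are those of promoter elements, from RefSeq.

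Rows of a gene were summed. Estimated counts were rounded and tested with edgeR 4.0.16 in R 4.3.3 (quasi-likelihood test, robust, TMM, filterByExpr with a minimum count of 10, 1 fit of all 9 libraries), with Benjamini-Hochberg adjustment over 6398 genes and a threshold of 0.05. SE is the log2 fold change over the square root of F. Where a group was at 0, a bound on the fold used 3 counts over the group; bounds and intervals cover counting error only. FPKM describes levels, TPM the share of a library listed. Alternatives were DESeq2 1.42.0, limma-trend (limma 3.58.1), other scalings, filters and sums, a replicate block, and leaving out libraries. The scripts were tested on counts simulated with the spread of these data, for SH1 against control. The edgeR test found 4 of 93 genes changed 4-fold (4.3%) and 43 of 93 changed 8-fold (46.2%). Nearly all of those found had a spread below the median, where it found 4 of 49 and 41 of 57. The 73 genes vary more within groups than all genes tested (median CV 66.0% against 50.08%), so these shares may be too high for them. A gene that did not pass the threshold may thus still have changed.

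Named genes are a group chosen by function, the 3 smallest p per direction and comparison, the 2 highest levels per role, and those whose 6 knockdown libraries did not overlap control. The members and lists were chosen with earlier results of these data known. Plotted genes and the ranges of other members were chosen after their values were seen. A member, kept in all counts, is not reported here by name.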

Additional observations from a re-analysis of the deposited data

How the results depend on the processing

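No count of ER protein processing genes past the threshold was above 0 with the main test, size factors from DESeq2, library totals in place of TMM, either change of the filter, curated transcripts alone, each transcript alone or the other 7 libraries. The count in SH1 against control was 6 with DESeq2, 3 with limma-trend on log2(FPKM + 1), 3 on log2(FPKM + 0.1), 1 with the library factors of the authors and 0 to 1 when 1 library was left out, with SEC31A called without control 3. In SH3 against control and in the average it was 5 and 5 with DESeq2, and 0 to 0 with 1 library left out. In SH3 against SH1 it was 5 with DESeq2, 1 with limma-trend on log2(FPKM + 1) and 1 on log2(FPKM + 0.1), 1 in a fit of only these groups and 0 to 1 with 1 library left out, again SEC31A without control 3. The median log2 fold change in SH1 was 0.11 with limma-trend on log2(FPKM + 0.1) and -0.33 with curated transcripts alone (49 genes tested), and -0.36 to 0.07 with 1 library left out. In the average it was 0.04 and 0.13 with limma-trend on log2(FPKM + 1) and log2(FPKM + 0.1), and -0.53 to -0.13 with 1 library left out, lowest without SH1 2. In SH3 against SH1 it was -0.03 to 0.20 with 1 library left out. The cause was not tested. For 39 named genes, 3333 of 3363 values over 22 settings stayed on the same side of the threshold, 30 newly passed and 233 uncalled values changed sign. As none passed in the main test, it had no call that a setting could lose or reverse. Over the settings that gave a value, the adjusted p in SH1 against control ran from 0.000156 to 0.641 for ERO1B, 0.000264 to 0.301 for GANAB, 0.0149 to 0.641 for SAR1A, 0.00715 to 0.601 for PRKCSH and 0.0261 to 0.618 for DERL1. In SH3 against control it ran from 0.000575 to 0.828 for ERO1B, 0.00566 to 1.0 for MAPK8, 0.0330 to 1.0 for UBXN1 and 0.0342 to 0.828 for PLAA, and in SH3 against SH1 from 0.000284 to 0.682 for SEC31A and 0.00398 to 0.782 for SAR1A. With the replicate number as a block 0 genes passed in the 4 comparisons. The labels give no pairing by this number. Deviations from the group means correlated at -0.065 to 0.076 in 9 same-numbered pairs, which cannot show how the libraries were prepared. Counting limits the genes with few reads: 28 to 34 of 73 had 100 counts or more in a library.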
